A study of Homo sapiens with 39 samples.

Results

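The 9 epithelial keratin genes KRT7, KRT8, KRT18, KRT19, KRT20, KRT23, KRT80, KRT81 and KRT86 were taken by name from the deposited tables, which hold 45435 gene rows and 58 rows named as keratins. Their mRNA was measured by RNA sequencing in 39 libraries of HCT116, an established human colorectal cancer cell line, with 13 groups of 3. Unmodified Flp-In T-REx host cells made up the parental group. In each of the 12 further groups the cells carried a doxycycline-switched construct for 1 numbered isoform of HNF4A, the hepatocyte nuclear factor 4 alpha transcription factor, joined to GFP. Doxycycline was given at 2.5 µg/ml for 48 h to every group, the parental cells included, and the selection drugs were left out during that time. Up to then the parental cells were kept in blasticidin and zeocin, and the isoform lines in blasticidin and hygromycin B. Every isoform was represented by 1 stable line and GFP was never expressed alone, so effects of GFP, of earlier selection or of deriving a line cannot be told apart from those of the isoform. The labels do not say whether the 3 libraries of a group came from separate cultures, so each p-value measures only the spread between libraries, which may be technical.

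Keratins are the intermediate filament proteins of epithelial cells. A filament is built from pairs, each made of a type I keratin and a type II keratin, and an unpaired keratin is usually degraded. The type II keratin KRT8 and its type I partner KRT18 form the basic pair of simple epithelia such as the gut lining, and KRT19 is a further type I partner there. KRT20 and KRT23 are type I keratins, of which KRT20 marks differentiated intestinal cells. KRT7 and KRT80 are type II keratins, KRT7 being typical of ducts and rare in the normal colon. KRT81 and KRT86 are type II keratins best known from hair. HNF4A is a nuclear receptor that binds DNA in liver and gut epithelium. By its standard nomenclature, which the labels do not spell out, isoforms 1 to 6 start at the P1 promoter and isoforms 7 to 12 at the P2 promoter, isoforms 4 to 6 and 10 to 12 have further forms of the N-terminus, isoforms 2, 5, 8 and 11 carry a short insertion in the C-terminal region, and isoforms 3, 6, 9 and 12 have a short C-terminus.

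TPM is abundance per transcript length, scaled to the same total in every library. The labels were checked against HNF4A, summed over its 12 rows, which averaged 31.5 TPM in parental cells and between 613.5 and 1071 TPM in the lines. That sum parts the lines from the parental cells but cannot show which isoform a line carries, which was taken from the labels. Replicate 1 of isoform 3 stood apart from its line, with 407 TPM of HNF4A against 833 and 772 TPM, and results for isoform 3 are therefore also given without it. Of 11 markers of colorectal epithelium, 8 averaged at least 1 TPM, led by EPCAM at 519 TPM, although VIL1 and LGALS4 were at 0.554 and 0.137 TPM in parental cells, while CDX1, CDH17 and GPA33 averaged 0.0132, 0.0661 and 0.158 TPM. Among markers of other cell types, the squamous genes TP63, KRT5 and KRT14 had group means of at most 0.0565, 0.135 and 0.117 TPM and IVL was listed at 0 throughout, while KRT10 of the same list averaged 24.5 TPM. The leukocyte gene PTPRC reached at most 0.124 TPM, while the fibroblast and muscle genes COL1A1 and ACTA2 averaged 11.3 and 14.9 TPM and the endothelial gene PECAM1 2.88 TPM. TPM do not give a library's depth. The authors' mean normalised counts, added over all genes, came to 50609338 to 56136330 per deposited table.

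A gene was tested when it averaged at least 1 TPM over all libraries, which 15003 rows and 5 of the 9 keratins did. KRT8, KRT18, KRT19, KRT80 and KRT7 passed this filter. KRT20, KRT86, KRT81 and KRT23 did not, with means of 0.842, 0.434, 0.203 and 0.142 TPM, and are described from a fit without the filter. Fold changes are differences of log2(TPM + 1), a scale that understates the change of low genes. A gene is said to have passed, or to have risen or fallen, at a limma adjusted p under 0.05 within its comparison, and to have been called when its log2 fold change was in addition at least 1 in size. Libraries are also described as above or below the parental range, which is that of the same 3 libraries for every line. The share of all genes outside that range was not counted, so counts of such lines only describe the members.

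Keratin mRNA in these cells was almost wholly KRT8, KRT18 and KRT19. They made up 97.47% ± 0.0664 (SD, n = 3) of the summed TPM of all 58 keratin rows in parental cells and 98.88% ± 0.0384 (SD, n = 3) in isoform 1, the highest share of any group. The summed keratin level was 2644 TPM ± 55.5 (SD, n = 3) in parental cells. It was highest in isoform 1 at 4829 TPM ± 274 (SD, n = 3) and lowest in isoform 12 at 2139 TPM ± 24.3 (SD, n = 3). These are bulk samples, in which fewer cells of a type and less RNA per cell cannot be told apart.

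Each line was compared with the same 3 parental libraries, and the members' counts are set beside the share of all 15003 genes that met the same rule. In isoform 1, 4 of the 5 tested keratins passed (3 higher, 1 lower), against 58.5% of all genes, and 1 was called, against 4.52%. Isoform 2 had 5 that passed (3 higher, 2 lower), against 55.3%, and 2 called, both lower, against 3.73%. For isoform 3, 4 passed (2 higher, 2 lower), against 26%, and none was called, against 0.807%. The lines of the P1 promoter with the further exon shared a pattern in which most tested keratins were lower. In isoform 4, 5 passed (1 higher, 4 lower), against 16.3%, and 2 were called lower, against 0.54%. Isoform 5 also had 5 that passed (1 higher, 4 lower), against 14.8%, and 2 called lower, against 0.293%. For isoform 6, 5 passed, all lower, against 10.1%, and none was called, against 0.247%. The P2 lines 7, 8 and 9 differed in how many tested keratins were higher. In isoform 7, 5 passed (4 higher, 1 lower), against 39.6%, and 1 was called higher, against 2.08%. Isoform 8 had 4 that passed (3 higher, 1 lower), against 34.4%, and none called, against 1.41%. For isoform 9, 2 passed (1 higher, 1 lower), against 22.7%, and none was called, against 0.827%. Among the last lines, 10 and 12 had the same calls and 11 had none. In isoform 10, 5 passed (1 higher, 4 lower), against 37.3%, and 2 were called lower, against 1.44%. Isoform 11 had 4 that passed (3 higher, 1 lower), against 38.5%, and none called, against 1.7%. For isoform 12, 4 passed, all lower, against 14.6%, and 2 were called lower, against 0.573%. In all, 52 of 60 tests of these 5 keratins passed and 12 were called: 6 for KRT80, 5 for KRT7 and 1 for KRT19. In isoforms 1 and 2, where most genes of the table passed, the count of keratins that passed says little by itself.

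**Figure D1:**
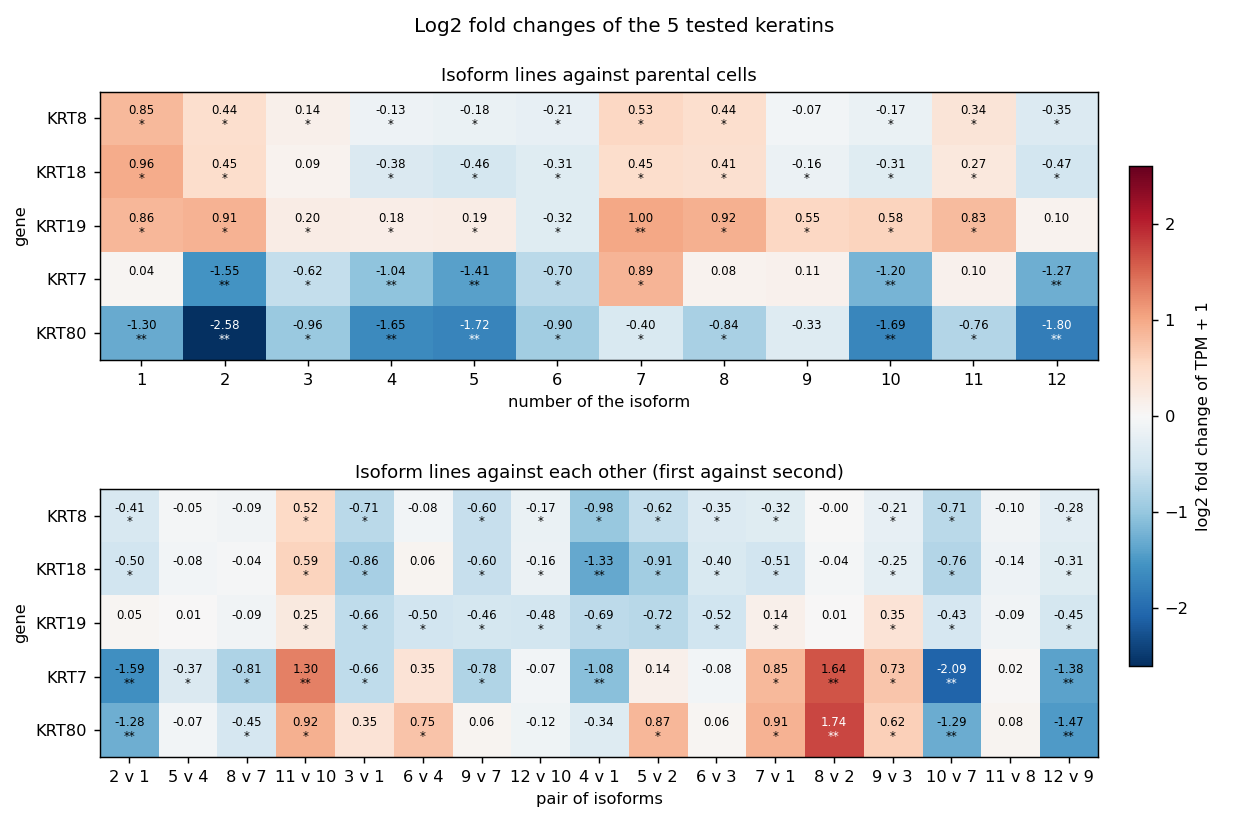
Log2 fold changes of TPM + 1 (colour and printed value) for the 5 tested keratins in 12 isoform lines against parental cells (top) and in 17 pairs of lines (bottom); 1 star marks a limma adjusted p under 0.05 and 2 stars a size of at least 1 in addition. KRT80 is negative in all 12 lines, and KRT8 and KRT18 share their sign in every line.

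KRT8 was the most abundant keratin. Its 3 parental libraries had 1295, 1336 and 1346 TPM. In isoform 1, the highest line, they had 2491, 2219 and 2479 TPM. In isoform 12, the lowest, they had 1030.1, 1037 and 1061 TPM. The libraries of these groups lay wholly above or wholly below the parental ones. Against parental cells KRT8 was higher by 0.85 ± 0.045 (SE) in isoform 1 (limma adjusted p 5.12e-16). It was lower by a log2 change of -0.35 ± 0.045 (SE) in isoform 12 (limma adjusted p 1.77e-06). KRT8 rose in 6 lines (isoforms 1, 2, 3, 7, 8 and 11), fell in 5 (isoforms 4, 5, 6, 10 and 12) and did not pass in isoform 9, whose libraries had 1178, 1284 and 1330 TPM and overlapped the parental range. No line reached a log2 change of 1. The fall in isoform 4 of -0.13 (limma adjusted p 0.0431) ranged in adjusted p from 0.0352 to 0.387 over the alternatives and was lost without any 1 of 5 of its 6 libraries. The rise in isoform 3 of 0.14 (limma adjusted p 0.0205) was lost without parental replicate 1 (0.08) or replicate 2 of the line (0.0749). Ordered by mean, isoform 1 (2396 TPM) stood apart from isoform 7 (1918 TPM), which stood apart from isoforms 2 (1805 TPM), 8 (1801 TPM) and 11 (1684 TPM). The ranges of isoforms 2, 8 and 11 overlapped from neighbour to neighbour, as did those from the parental cells (1326 TPM) down to isoform 6 (1149 TPM).

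KRT18, the type I partner of KRT8, followed the same order closely. The parental libraries had 790, 839 and 855 TPM. Isoform 1 had 1638, 1493 and 1690.2 TPM. Isoform 12 had 588, 589 and 615 TPM. No line overlapped the parental range: 6 lines lay above it and 6 below. Isoform 9 was below it only narrowly, at 788.0 TPM in replicate 3 against 789.6 TPM in parental replicate 1. KRT18 rose most in isoform 1, by 0.96 ± 0.054 (SE) on the log2 scale (limma adjusted p 2.35e-15). Its lowest log2 fold change was -0.47 ± 0.054 (SE) in isoform 12 (limma adjusted p 2e-07). KRT18 rose in 5 lines and fell in 6. Isoform 3, at 881 TPM ± 7.5 (SD, n = 3) against 828 TPM ± 34 (SD, n = 3), had a log2 change of 0.091 and did not pass (limma adjusted p 0.226), though with scaling it did (limma adjusted p 0.032). In isoform 9 the fall of -0.16 passed (limma adjusted p 0.0357), but its adjusted p ranged from 0.0106 to 0.231 over the alternatives and was above 0.05 without parental replicate 2 or 3 or replicate 1 of the line. Across the 13 group means, KRT8 and KRT18 had a Pearson r of 0.987 on the log2(TPM + 1) scale, which is used for every r given; both values of a group come from the same libraries.

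The level of KRT8 relative to KRT18 was not constant. In TPM, which is scaled by transcript length, the ratio was 1.6 ± 0.033 (SD, n = 3) in parental cells. It was lowest in isoform 1 at 1.49 ± 0.027 (SD, n = 3). It was highest in isoform 5 at 1.95 ± 0.023 and in isoform 4 at 1.9 ± 0.06 (SD, n = 3). All 3 libraries of isoforms 4 and 5 lay between 1.84 and 1.97, above every library of every other group, and the other lines besides isoform 1 had means between 1.59 and 1.76. No test was made of this ratio. KRT8 and KRT18 overlap head to head on opposite strands of chromosome 12 (KRT8 at 52897187 to 52949954, KRT18 at 52948871 to 52952901, GRCh38, GENCODE v29), and 14.1% of the 31-base words of KRT18 transcripts also occur in KRT8 transcripts. Whether the authors' quantification used strand is not given in the sources used here, so reads from that overlap may be divided between them.

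**Figure D2:**
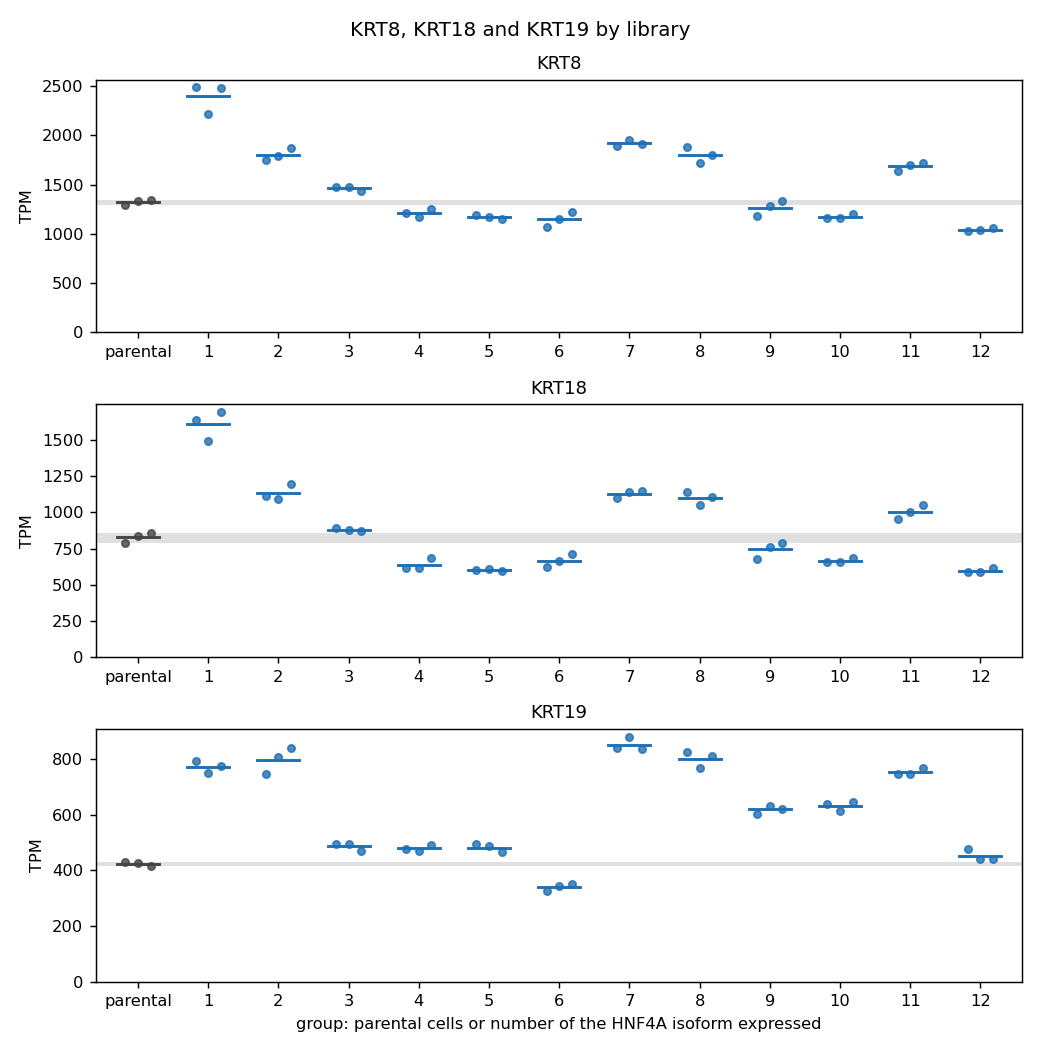
TPM of KRT8, KRT18 and KRT19 in every library (points) with the mean of each group (line); the grey band is the range of the 3 parental libraries. KRT8 and KRT18 lie above the band in isoforms 1, 2, 3, 7, 8 and 11, and KRT19 lies above it in 11 of 12 lines, all but isoform 6.

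KRT19, a further type I keratin of simple epithelia, was above the parental range in 11 lines. The parental libraries had 429, 425 and 417 TPM. Isoform 7, the highest line, had 838, 879 and 837 TPM. Isoform 6, the lowest and the only line under the parental range, had 324, 343 and 353 TPM. KRT19 rose in 10 lines and fell in 1, isoform 6, by a log2 change of -0.32 ± 0.04 (SE) (limma adjusted p 2.15e-06). In isoform 12 it was at 453 TPM ± 19.4 (SD, n = 3), 0.095 higher on the log2 scale, which did not pass (limma adjusted p 0.109). Its change in isoform 7, 1.00 ± 0.04 (SE) (limma adjusted p 1.9e-18), was the only call of a higher keratin. That call lies at the minimum fold: it was 0.98 without replicate 2 of isoform 7 and 0.99 without parental replicate 3. Isoforms 8, 2, 1 and 11 followed at 801, 798, 772 and 753 TPM, with ranges that overlapped from neighbour to neighbour. With median-of-ratios scaling the log2 changes in isoforms 1 and 2 reached 1.00 and 1.03 and would be called too.

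KRT19 parted from KRT8 and KRT18 in isoforms 4, 5 and 10, where these fell and KRT19 rose. In isoform 10, KRT8 and KRT18 were lower by log2 changes of -0.17 and -0.31 while KRT19 was higher by 0.58 ± 0.04 (SE) (limma adjusted p 1.06e-12). The ratio of KRT19 to KRT18 was 0.513 ± 0.0286 (SD, n = 3) in parental cells and 0.951 ± 0.0261 (SD, n = 3) in isoform 10. It stayed close to the parental ratio in isoform 1, at 0.481 ± 0.0217, and in isoform 6, at 0.511 ± 0.0153 (SD, n = 3), where the ranges overlapped. Across 13 groups the Pearson r of KRT19 was 0.79 with KRT8 and 0.747 with KRT18. The summed type II keratins amounted to 1.06 times the summed type I keratins in parental cells and to between 0.891 (isoform 10) and 1.13 (isoform 6) times in the lines.

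**Figure D3:**
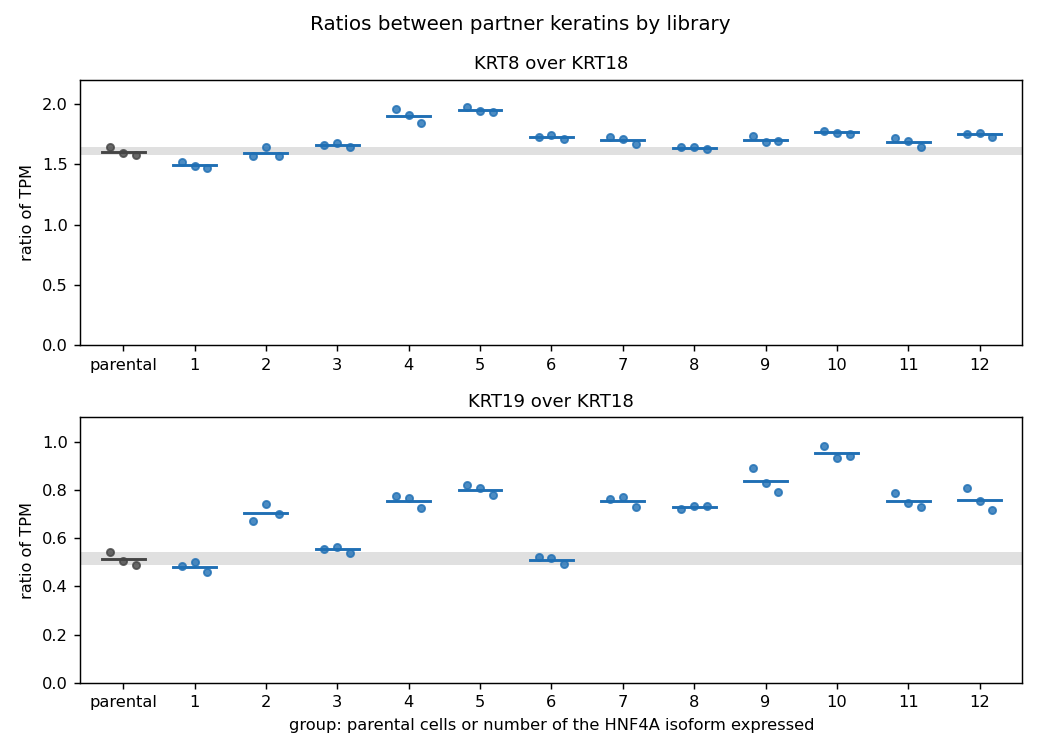
Ratios of TPM in every library (points) with group means (lines) and the parental range (grey band): KRT8 over KRT18 (top) and KRT19 over KRT18 (bottom). KRT8 over KRT18 is highest in isoforms 4 and 5, and KRT19 over KRT18 is highest in isoform 10 at 0.951.

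KRT80, a type II keratin described at desmosomes, lay below the range of the same 3 parental libraries in all 12 lines. The share of all genes that did so was not counted. The parental libraries had 27.6, 28.3 and 27.8 TPM. Isoform 2, the lowest line, had 4.86, 3.43 and 3.33 TPM. Isoform 9, the nearest to parental cells, had 22.8, 22.6 and 20.5 TPM. KRT80 fell in 11 lines, and the fall was called in isoforms 1, 2, 4, 5, 10 and 12. Its largest change was -2.58 ± 0.15 (SE) in isoform 2 (limma adjusted p 1.07e-14). Isoforms 4, 5, 10 and 12 lay close together, at 8.22, 7.82, 8.01 and 7.35 TPM with overlapping ranges. In isoform 9 the change of -0.33 ± 0.15 (SE) did not pass (limma adjusted p 0.124), although it did in a fit of only those 2 groups (limma adjusted p 0.0148). The authors' deposited table, made from counts, gives KRT80 -0.299 in isoform 9 (the authors' adjusted p 0.000655). In isoform 7 the change of -0.40 passed (limma adjusted p 0.0403), but its adjusted p ranged from 0.0014 to 0.132 over the alternatives and was above 0.05 without any 1 of 5 of the 6 libraries compared. For isoform 7 the authors' table gives -0.305 (the authors' adjusted p 5.74e-05). The libraries of isoform 3 were uneven, with 21.8 TPM in replicate 1 and 11.3 and 10.8 TPM in the others. There the change was -0.96 ± 0.15 (SE) (limma adjusted p 2.42e-05), and without replicate 1 it was -1.26 ± 0.12 (SE) (limma adjusted p 1.49e-09), which would be called. That library is the one with the lowest HNF4A of its line, and the part of its HNF4A level in the KRT80 value was not tested.

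KRT7, a type II keratin of ducts, differed between lines in direction. The parental libraries had 5.15, 5.94 and 5.7 TPM. Isoform 7 had 10.9, 11.4 and 11.4 TPM, the only line above the parental range. Isoform 2 had 1.07, 1.49 and 1.21 TPM. KRT7 rose in isoform 7 by 0.89 ± 0.12 (SE) on the log2 scale (limma adjusted p 4.68e-07). Its lowest change was -1.55 ± 0.12 (SE) in isoform 2 (limma adjusted p 3.52e-12), and the fall was called in isoforms 2, 4, 5, 10 and 12 and passed in isoforms 3 and 6 as well. In isoform 4, the call at -1.04 rests on the minimum fold, with -0.99 under scaling and -0.99 without library c of that line, and -0.98 in the authors' deposited table. That table gives KRT7 1.04 in isoform 7, past the minimum fold. Isoforms 1, 8, 9 and 11 overlapped the parental range, with means between 5.79 and 6.18 TPM and log2 changes between 0.042 and 0.11, none of which passed. Isoform 3 had 4.64, 3.14 and 2.41 TPM, its replicate 1 again nearest to parental cells, and its change of -0.62 (limma adjusted p 0.000265) was -0.81 without that replicate; in a fit of only these 2 groups its adjusted p was 0.0538.

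KRT7 and KRT80 fell together in 7 lines and parted in others. In isoform 1, KRT80 fell by 1.30 on the log2 scale while KRT7 had a change of 0.042 (limma adjusted p 0.788). In isoform 7, KRT7 rose while KRT80 had a change of -0.40. The ratio of KRT80 to KRT7 was 5 ± 0.31 (SD, n = 3) in parental cells, 5.28 ± 0.448 in isoform 5 and 1.87 in both isoform 1 and isoform 7. Across the 13 group means the Pearson r of KRT7 and KRT80 was 0.843.

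**Figure D4:**
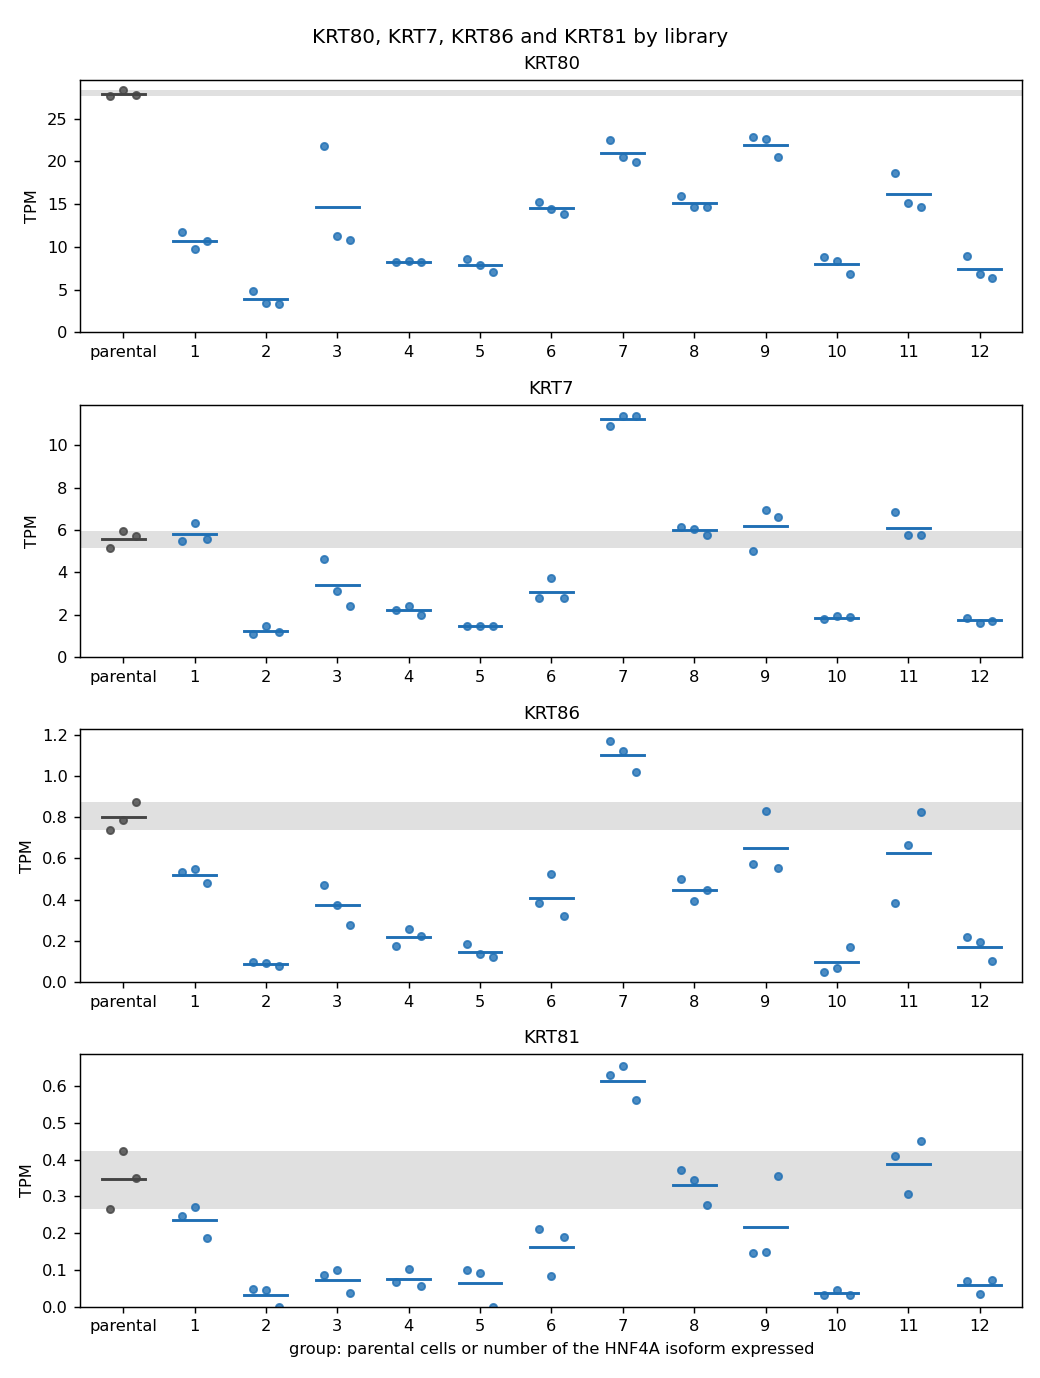
TPM of KRT80, KRT7, KRT86 and KRT81 in every library (points) with group means (lines) and the parental range (grey band). KRT80 lies below the band in all 12 lines, while KRT7, KRT86 and KRT81 lie above it in isoform 7 alone.

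KRT86 and KRT81, type II keratins of hair that lie next to KRT7, were near the floor of the measurement, and both were highest in isoform 7 and lowest in isoform 2. For KRT86 the parental libraries had 0.74, 0.785 and 0.872 TPM. Isoform 7 had 1.17, 1.12 and 1.02 TPM. Isoform 2 had 0.0946, 0.0908 and 0.0783 TPM. KRT86 lay below the parental range in 9 lines, above it in isoform 7 and overlapped it in isoforms 9 and 11. In the fit without a filter, which covered 39252 rows, the share of rows that passed was 25.8%, 24%, 9.49%, 5.98%, 5.52% and 3.49% in isoforms 1 to 6 and 16.5%, 13.4%, 8.83%, 14.9%, 15.6% and 5.37% in isoforms 7 to 12. KRT86 passed lower in 9 lines and higher in 1, with no log2 change past -0.73. From counts, the authors' deposited table gives KRT86 a log2 change of -2.34 in isoform 2 and -1.60 in isoform 10, and KRT81 -1.35 in isoform 2. These values are themselves smaller than the ratios of mean TPM, which for KRT86 were 0.0965 against 0.799 TPM in isoform 10. In that fit its rise in isoform 7 (limma adjusted p 0.0366) was lost with a pseudocount of 0.1 (limma adjusted p 0.257) and without any 1 of 4 of its 6 libraries. The fall in isoform 1 (limma adjusted p 0.0154) was lost with that pseudocount (0.095) and with scaling (0.0812). It was also lost without parental replicate 3 (0.0695) or replicate 3 of the line (0.0611). In the authors' deposited table the adjusted p of KRT86 in isoform 1 was 0.186. The falls of KRT86 in isoforms 3 and 6 were lost with 2 groups only (limma adjusted p 0.0695 and 0.111). KRT81 had 0.266, 0.424 and 0.351 TPM in parental cells. It had 0.63, 0.654 and 0.561 TPM in isoform 7, and 0.0481, 0.0464 and 0 TPM in isoform 2. KRT81 lay below the parental range in 7 lines and above it in 1, and it passed in the same 8 lines. The rise in isoform 7 was lost with a pseudocount of 0.1 (limma adjusted p 0.0639) and with 2 groups only (0.0588). Its pass in isoform 6 was lost with that pseudocount (limma adjusted p 0.0929), with 2 groups only (0.2) and without parental replicate 2 (limma adjusted p 0.133) or 3 (0.0664) or replicate 2 of the line (0.174). Across 13 groups the Pearson r with KRT7 was 0.955 for KRT86 and 0.934 for KRT81.

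The values of KRT81 and KRT86 are not independent of each other. Of the 31-base words in KRT81 transcripts, 42.5% also occur in KRT86 transcripts, and 34.7% of those of KRT86 occur in KRT81 (GENCODE v29). Of 1454 aligned coding bases 1361 were identical, which is 89.8% of the longer coding sequence. How the authors' quantification divided such reads changes each gene's level, so the levels of KRT81 and KRT86 are uncertain one against the other. Sharing was lower for KRT80 (1.3% of words with any other gene), KRT23 (4.46%), KRT19 (6.42%) and KRT7 (7.43%), and 0 for KRT20. It was 35% for KRT18 and 25.3% for KRT8, which have many processed pseudogenes.

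KRT20 and KRT23, type I keratins encoded on chromosome 17, did not separate the lines. KRT20, the marker of differentiated intestinal cells, had 1.01, 1.24 and 0.6 TPM in the parental libraries. Its group means ran from 0.608 TPM in isoform 11 to 1.03 TPM in isoform 12, and the libraries of every line overlapped the parental range. In the fit without a filter KRT20 passed in 0 of 12 lines, with log2 changes between -0.28 and 0.07 (largest SE 0.15). For KRT23 the parental libraries had 0.0638, 0.167 and 0.0951 TPM, and no library exceeded 0.424 TPM. It passed in 1 line, isoform 11, which had 0.32, 0.205 and 0.424 TPM (log2 change 0.25, limma adjusted p 0.0172), and that was lost without replicate 3 of the line (limma adjusted p 0.14) or parental replicate 1 (0.0776) or 3 (0.0542). At these levels a change could be missed.

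Lines that differ in 1 end of the protein were then compared with each other, in 17 pairs that use no parental library. Adding the insertion (isoforms 2, 5, 8 and 11 against 1, 4, 7 and 10) went with lower KRT7 in 3 pairs and with higher KRT7 in 1; these differences between pairs were not tested. Isoform 2 was lower than isoform 1 for 4 of the 5 tested keratins (17.5% of all genes passed), with KRT7 at -1.59 ± 0.12 (SE) (limma adjusted p 8.1e-11) and KRT80 at -1.28 ± 0.15 (SE) (limma adjusted p 5.35e-07). Isoform 11 was higher than isoform 10 for all 5 (13.4% of all genes passed), with KRT7 at 1.30 ± 0.12 (SE) (limma adjusted p 5.04e-09). KRT7 thus had 1.25 TPM in isoform 2 and 5.79 TPM in isoform 1, but 6.10 TPM in isoform 11 and 1.87 TPM in isoform 10. Isoform 8 was lower than isoform 7 for 2 keratins (14.5% of all genes), KRT7 at -0.81 ± 0.12 (SE) and KRT80 at -0.45 ± 0.15 (SE), the latter at a limma adjusted p of 0.0496 that was lost without any 1 library of either line. With scaling, KRT8 at -0.152 (limma adjusted p 0.0347) and KRT19 at -0.149 (limma adjusted p 0.0462) passed lower in that pair as well. Isoform 5 differed from isoform 4 for 1 keratin (10.1% of all genes), KRT7 at -0.37 (limma adjusted p 0.0462), which was likewise lost without any 1 of those 6 libraries. For isoform 5 against 4, KRT8 differed by -0.045 ± 0.045 (SE) and KRT19 by 0.0078 ± 0.04 (SE), and with scaling by -0.12 ± 0.049 and -0.069 ± 0.051 (SE), none of which passed.

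The short C-terminus went with lower KRT19 in each of its 4 pairs. KRT19 was lower in isoform 3 than in isoform 1 by a log2 change of -0.66 (limma adjusted p 5.36e-14), where 4 keratins passed, all lower (41.1% of all genes). It was lower in isoform 6 than in isoform 4 by -0.50 (limma adjusted p 1.22e-10), where 2 keratins passed (11.8% of all genes). In isoform 9 against 7 it was lower by -0.46 (limma adjusted p 8.71e-10), with 4 passing, all lower (15.4% of all genes). In isoform 12 against 10 it was lower by -0.48 (limma adjusted p 2.06e-10), with 3 passing, all lower (17.8% of all genes), of which KRT18 at -0.16 was lost without any 1 of 5 of the 6 libraries. The SE was 0.04 for each of these values. KRT8 and KRT18 passed lower in 3 of the 4 pairs, the exception being isoform 6 against 4, with -0.076 ± 0.045 (SE) and 0.064 ± 0.054 (SE). KRT80 was higher in isoform 6 (14.5 TPM) than in isoform 4 (8.22 TPM) by 0.75 ± 0.15 (SE) (limma adjusted p 0.00113) and did not pass in the other 3 pairs. For KRT80 in isoform 3 against 1, the difference was 0.35 with all libraries (limma adjusted p 0.0729) and 0.039 without replicate 1 of isoform 3, whereas it passed without replicate 2 (0.49, limma adjusted p 0.0197) or replicate 3 (0.51, limma adjusted p 0.0114).

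Isoforms 4 to 6 and 1 to 3 share their C-termini and differ in the N-terminus. Isoform 4 was lower than isoform 1 for 4 keratins (55.1% of all genes passed). KRT18 stood at 637 TPM ± 38 (SD, n = 3) in isoform 4 against 1607 TPM ± 102 (SD, n = 3) in isoform 1. The log2 difference was -1.33 ± 0.054 (SE) (limma adjusted p 1.13e-18). KRT8 differed by -0.98 ± 0.045 (SE) in that pair (limma adjusted p 2.04e-17). Between isoforms 5 and 2, 4 keratins passed (53.9% of all genes), with KRT18, KRT19 and KRT8 at -0.91, -0.72 and -0.62 and KRT80 at 0.87. Between isoforms 6 and 3, 3 passed, all lower (21.6% of all genes): KRT19 at -0.52, KRT18 at -0.40 and KRT8 at -0.35. KRT80 differed by 0.056 in that pair, and by 0.36 (limma adjusted p 0.0251) without replicate 1 of isoform 3. The simple keratins KRT8, KRT18 and KRT19 were thus lower in each of these 3 pairs, for every C-terminus.

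Isoforms 7 to 9 and 1 to 3 were compared next, again with the C-terminus matched. Between isoforms 7 and 1, 5 keratins passed (40% of all genes), 3 higher and 2 lower. There KRT80 was 0.91 and KRT7 0.85 higher in isoform 7, KRT18 differed by -0.51 and KRT8 by -0.32. KRT19 was 0.14 higher, which scaling lowered to 0.10 (limma adjusted p 0.119). Between isoforms 8 and 2, 2 passed (44.2% of all genes), both higher: KRT80 at 1.74 ± 0.15 (SE) (limma adjusted p 2.18e-10) and KRT7 at 1.64 ± 0.12 (SE) (limma adjusted p 3.95e-12). In that pair KRT8 differed by -0.0034 ± 0.045, KRT18 by -0.043 ± 0.054 and KRT19 by 0.0077 ± 0.04 (SE). With scaling these were -0.087 ± 0.049, -0.13 ± 0.056 and -0.076 ± 0.051 (SE), none of which passed. Between isoforms 9 and 3, 5 passed (18.7% of all genes), with KRT7 at 0.73, KRT80 at 0.62 and KRT19 at 0.35 higher, and KRT18 at -0.25 and KRT8 at -0.21 lower. Without replicate 1 of isoform 3 the KRT80 difference was 0.93, and without replicate 2 or 3 it was 0.48 or 0.46 (limma adjusted p 0.053 and 0.0515). KRT7 and KRT80 thus passed higher in isoforms 7, 8 and 9 than in 1, 2 and 3.

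Isoforms 10 to 12 were compared with 7 to 9. In isoform 10 against 7, all 5 keratins passed lower (25.5% of all genes), and KRT7 had the largest difference of any pair, -2.09 ± 0.12 (SE) (limma adjusted p 5.86e-14), from 11.2 to 1.87 TPM. KRT80 differed by -1.29 ± 0.15 (SE) there (limma adjusted p 1.49e-07). In isoform 12 against 9, all 5 again passed lower (16.7% of all genes), with KRT80 at -1.47 and KRT7 at -1.38. In isoform 11 against 8, 0 of 5 passed (12% of all genes), with log2 differences between -0.14 (KRT18, SE 0.054) and 0.08 (KRT80, SE 0.15). Differences between these 3 pairs were not tested.

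With lines rather than libraries as the units, 12 line means were fitted for the effect of each end of the protein. Isoforms 4 to 6 were lower than isoforms 1 to 3 for 3 of 5 keratins (34.6% of all genes passed): KRT18 at -0.88 ± 0.2 (SE) (limma adjusted p 0.00998), KRT8 at -0.65 ± 0.16 (SE) (limma adjusted p 0.0133) and KRT19 at -0.64 ± 0.071 (SE) (limma adjusted p 0.000824). None reached a log2 difference of 1, and KRT8 was lost without a filter (limma adjusted p 0.0551). For isoforms 7 to 9 against 1 to 3, 0 of 5 passed (11.6% of all genes), although the estimates for KRT80 and KRT7 were 1.09 ± 0.4 and 1.07 ± 0.46 (SE). For isoforms 10 to 12 against 7 to 9, 0 of 5 passed, as did 0% of all genes. The insertion had 0 of 5 and likewise 0% of all genes. For the short C-terminus 0 of 5 passed and 0% of all genes, with KRT19 nearest at -0.53 ± 0.062 (SE) (limma adjusted p 0.0592), whose adjusted p ranged from 0.0332 to 0.274 over the alternatives. With 1 line per isoform, these class values have few degrees of freedom.

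KRT80, KRT7, KRT86 and KRT81 lie next to each other on chromosome 12, between 52168996 and 52309163 (GRCh38, GENCODE v29). KRT80 (52168996 to 52192000) and KRT81 (52285913 to 52291534) are on the minus strand, and KRT7 (52232520 to 52252186) and KRT86 (52249300 to 52309163) on the plus strand. The annotated span of KRT86 overlaps the end of KRT7 and the whole of KRT81. The antisense gene KRT7-AS and the pseudogene KRT87P lie in the same stretch. They had 0.457 and 0.279 TPM in parental cells and their Pearson r with KRT7 over 13 groups was 0.966 and 0.905. KRT7-AS overlaps KRT7, and 6.07% of the words of KRT7 transcripts occur in KRT7-AS transcripts, so these levels are not separate measurements either. KRT8 and KRT18, further along the chromosome, had an r with KRT7 of 0.547 and 0.553. This stretch was looked at after the values of its genes were known, and its r values describe only these 13 groups.

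Most genes beside this stretch had smaller largest changes than KRT80 and KRT7. LINC00592, which overlaps KRT80, had 0.36 TPM in parental cells and an r with KRT7 of 0.643. ATG101, on the side of KRT80, had group means between 56.9 and 72.4 TPM, with log2 changes between -0.12 and 0.22 and an r with KRT7 of 0.631. NR4A1 had an r of 0.364 and ACVR1B of -0.11. Past KRT18, EIF4B and SPRYD3 had an r of 0.14 and 0.167. IGFBP6, further on, had its own large range, from 28.2 TPM in parental cells to 5.94 TPM in isoform 1, with an r of -0.096. Also past KRT18, RARG had a lowest log2 change of -0.829 (r -0.45) and SOAT2 a highest of 0.853 (r 0.209).

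**Figure D5:**
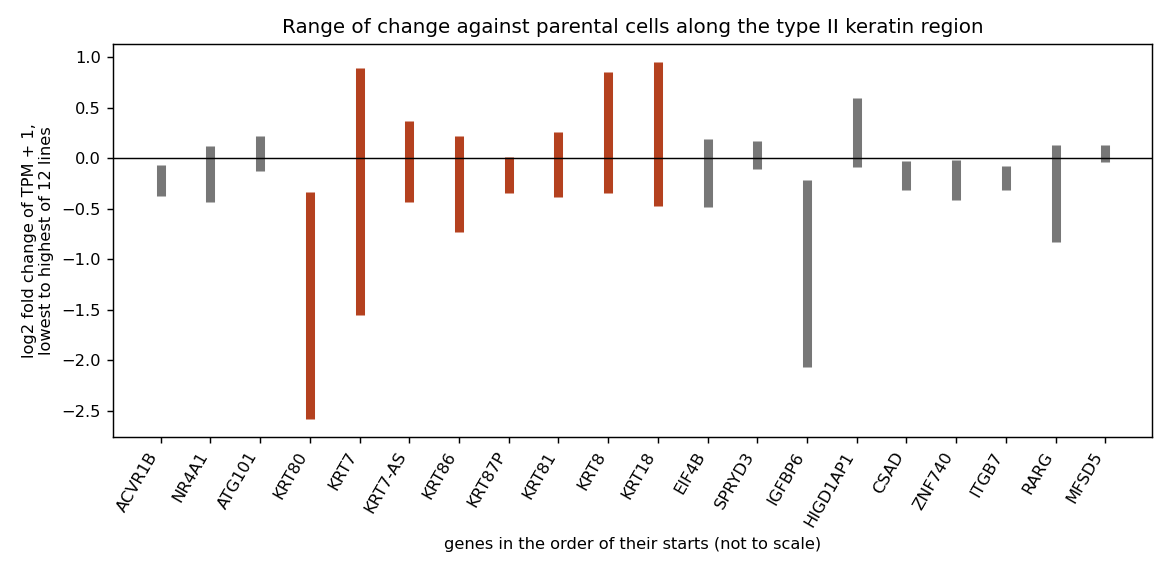
Range from the lowest to the highest log2 fold change of TPM + 1 over 12 lines against parental cells, for genes in their order along chromosome 12 (keratins and keratin-named genes in red, other genes with at least 1 TPM in parental cells in grey; spacing not to scale). KRT80 reaches -2.58 and KRT7 runs from -1.55 to 0.89; the short bars of KRT86, KRT87P and KRT81 reflect levels under 1.2 TPM, at which this scale understates change.

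The tested genes whose group means were most like those of KRT7 over the 13 groups were CDKN2B (Pearson r 0.889), a cyclin-dependent kinase inhibitor, CTGF (0.879), a matricellular growth factor, and KRT80 (0.843), among 567 genes whose group means had an SD of at least 0.5. CDKN2B had 6.52 TPM in parental cells, 1.94 TPM in isoform 2 and 12.6 TPM in isoform 7. For KRT80 they were OAS3 (0.880), an interferon-induced antiviral enzyme, KRT7 (0.843) and BTBD11 (0.816). OAS3 had 29.2 TPM in parental cells, 6.97 TPM in isoform 2 and 21.6 TPM in isoform 7. Such r values are the highest of many and describe 13 groups that share their libraries.

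Promoter sequence was at hand for 2 of the 9 genes in the RefSeq table (GRCh38.p14). The sequences of KRT8 and KRT20 are shown because no other member had one there. Each is the 250 bases before a start site, with matches to CAAAG, a core of the sequence that HNF4A is known to bind, or its reverse complement CTTTG in capitals. The KRT8 window is chr12:52926470-52926719 on the minus strand, before 1 upstream start among several of that gene, and has 2 matches; the KRT20 window is chr17:40885243-40885492 on the minus strand and has 1.
KRT8: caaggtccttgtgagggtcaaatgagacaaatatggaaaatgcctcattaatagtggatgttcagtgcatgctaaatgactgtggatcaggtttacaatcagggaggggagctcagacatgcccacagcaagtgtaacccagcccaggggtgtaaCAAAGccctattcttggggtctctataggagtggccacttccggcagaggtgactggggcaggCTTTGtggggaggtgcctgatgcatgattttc
KRT20: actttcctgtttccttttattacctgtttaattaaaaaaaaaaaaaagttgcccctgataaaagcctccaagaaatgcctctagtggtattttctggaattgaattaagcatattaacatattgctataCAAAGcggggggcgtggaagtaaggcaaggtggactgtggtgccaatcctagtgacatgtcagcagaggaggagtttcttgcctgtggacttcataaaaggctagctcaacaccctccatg
The short core occurs on either strand in 42.1% of all 35116 promoters of the table, so these matches are common. The longer form CAAAGTCCA, of which CAAAG is a part, has 0 matches in both windows and occurs in 0.325% of promoters. A match is a description of the letters and says nothing about binding.

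Of the 49 other keratin genes, 3 averaged at least 1 TPM. KRT10, a type I keratin of skin, averaged 24.5 TPM and passed higher in 7 lines, with log2 changes between -0.0098 and 0.39. KRT15, a type I keratin of basal cells, rose in 8 lines, was called in 2 and fell in isoform 6, between -0.59 and 1.35 (isoform 1). KRT222, a keratin-like gene, passed higher in 5 lines and lower in 2. Of 108 keratin pseudogenes 3 were tested and none was called, against 4.52% of all genes in isoform 1. KRT8P12 passed lower in 10 lines, KRT8P33 lower in 3, and KRT8P3 higher in 6 and lower in 6. KRT8P3 shares 8.87% of the words of KRT8 transcripts, so its values may follow those of KRT8.

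No tested gene that anchors keratin filaments to junctions reached the size of the largest change of KRT7 (-1.55) or KRT80 (-2.58). Within isoform 1, however, PKP2 (1.47) and DSC2 (1.38) changed more in size than KRT80 (-1.30) and KRT7 (0.042). Of 24 such genes 18 were tested, and over the 12 lines there were 6 calls, all higher; the share of all genes called ran from 0.247% (isoform 6) to 4.52% (isoform 1). PKP2, a desmosomal plaque protein, rose in 11 lines and was called in 3, up to 1.47 in isoform 1. DSC2, a desmosomal cadherin, reached 1.38 and ITGB4, a hemidesmosome integrin, 1.15 in isoform 2. The most abundant anchor, JUP (plakoglobin), averaged 150.3 TPM and rose in 11 lines, by up to 0.85 in isoform 1. PNN, an anchor here only by its place on the list, averaged 108 TPM and passed lower in 4 lines. DSG2, at 96.6 TPM, passed higher in 1. The median log2 change of the tested anchors ran from -0.095 in isoform 4 to 0.31 in isoform 1, where the median of all genes was -0.033 and -0.11.

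Other intermediate filament genes gave 3 higher and 10 lower calls among 9 tested genes of 16 over the 12 lines, beside the same 0.247% to 4.52% of all genes called per line. VIM, the filament protein of mesenchymal cells, averaged 9.78 TPM. It was called lower in 7 lines, down to -2.12 in isoform 4, and higher in isoform 6, at 1.06. NES (nestin) was called lower in 2 lines, down to -1.28 in isoform 1, and SYNC (syncoilin) higher in 2, up to 1.13 in isoform 1. Of 26 genes of colon epithelium differentiation 8 were tested. VIL1 (villin, of the brush border), LGALS4 and ANPEP passed the filter only through the lines in which they were high. Counts of calls for this list therefore depend on the filter, and no result is drawn from them. VIL1 had 0.554 TPM in parental cells and 42.7 TPM in its highest line, LGALS4 0.137 and 11.5 TPM, and ANPEP 0.158 and 8.46 TPM. TSPAN1, at 22.8 TPM in parental cells, was called higher in 7 lines, up to 1.94 in isoform 11. CA2, a carbonic anhydrase of the colon surface at 103 TPM in parental cells, passed lower in all 12 lines and was called in isoform 1 at -1.05. KRT20, which marks the same differentiated cells, passed in none of the lines.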

How the data were processed

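RNA was measured in 39 libraries of HCT116 cells, 3 in each of 13 groups set by the sample titles; 6 library columns, of isoforms 4 and 5, show their group but no replicate number and are named library a, b and c. The 9 genes and all gene lists were chosen with earlier results of these data known. The values are TPM per gene as deposited by the authors, who trimmed reads with Trimmomatic 0.36, checked them with FastQC 0.11.5 and used kallisto 0.44.0, DESeq2 1.22.2 and GRCh38.p12, per the submitters' processing notes; the labels' protocols name a directional poly(A) kit, the sources used here do not state the annotation, the strand setting or the order of these steps. The authors' tables also hold, per the file headers, a mean of normalised counts (a signal), a log2 fold change, the error of that change (a score), and the p-value before and after adjustment. TPM summed to between 999972.6 and 999987.7 per library, and 12 HNF4A rows were summed to 1.

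From these, log2(TPM + 1) of 15003 genes averaging at least 1 TPM was fitted in limma 3.58.1 (R 4.3.3; 13 group means, trend) with 26 residual degrees of freedom, for 12 contrasts with parental cells and 17 between lines. Line means gave 5 class contrasts. P-values were adjusted by Benjamini-Hochberg over all genes of a contrast. The fit was tested on simulated data. Named genes are all 9 keratins, other keratins averaging 1 TPM, the 3 genes of each further list called in most lines, the 3 most abundant anchors, and the 3 genes most like each keratin called in at least 3 lines. Alternatives were median-of-ratios scaling, a pseudocount of 0.1, a filter of 5 TPM or none, the replicate number as a block, 2 groups only, no minimum fold, the authors' table and each library left out. Coordinates and words of 31 bases come from GENCODE v29 (GRCh38), promoters from RefSeq (GRCh38.p14).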

Additional observations from a re-analysis of the deposited data

Results flagged for a closer look

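In 13 comparisons of lines that differ in 1 end of the protein, a keratin had passed against parental cells with opposite signs in the 2 lines, and the difference between the lines passed as well. The difference itself was tested by limma in each case, and the values against parental cells share the same 3 parental libraries.

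KRT18 gave 5 of these. It differed by 0.59 between isoform 11 and isoform 10 (0.27 and -0.31 against parental cells), by -0.60 between isoforms 9 and 7 (-0.16 and 0.45), and by -1.33 between isoforms 4 and 1 (-0.38 and 0.96). It also differed by -0.91 between isoforms 5 and 2 (-0.46 and 0.45) and by -0.76 between isoforms 10 and 7 (-0.31 and 0.45). Of the values against parental cells, the fall in isoform 9 was lost under several alternatives.

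KRT8, the partner of KRT18, gave 5 as well. It differed by 0.52 between isoforms 11 and 10 (0.34 and -0.17), by -0.98 between isoforms 4 and 1 (-0.13 and 0.85), and by -0.62 between isoforms 5 and 2 (-0.18 and 0.44). It further differed by -0.35 between isoforms 6 and 3 (-0.21 and 0.14) and by -0.71 between isoforms 10 and 7 (-0.17 and 0.53). KRT19 differed by -0.50 between isoforms 6 and 4 (-0.32 and 0.18) and by -0.52 between isoforms 6 and 3 (-0.32 and 0.20). KRT7 differed by -2.09 between isoforms 10 and 7 (-1.20 and 0.89), the largest of the 13. For KRT8 the values in isoforms 3 and 4 against parental cells were lost without some libraries. The limma adjusted p of these differences was at most 7.85e-07.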

How the results depend on the processing

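The 12 keratin calls against parental cells were 14 with scaling, 13 with a pseudocount of 0.1, 12 without a filter or with 2 groups only, 16 in the authors' deposited table and 11 to 13 with a library left out; they were 7 with a filter of 5 TPM, under which KRT7 is not tested, and 52 with no minimum fold. The 11 calls between lines became 5 with the 5 TPM filter and 58 with no minimum fold, and 11 to 12 with a library left out. These calls come from 17 pairs for each of 5 keratins. Of all genes, 10.1% (isoform 5 against 4) to 55.1% (isoform 4 against 1) passed in a pair with no minimum fold. The share of all genes called was not counted for the pairs. The class comparisons went from 0 to 3 with no minimum fold and stayed at 0 with a library left out. Scaling moved the median of all genes by over 0.1 in isoform 1 (from -0.107 to 0.0155) and isoform 2 (from -0.0899 to 0.0182). The gene lists were put through the same alternatives after the data had been seen. Counts for the colon differentiation list are printed below only to show how they move with the settings. No result is drawn from them, because VIL1, LGALS4 and ANPEP passed the filter only through the lines in which they were high. With a pseudocount of 0.1 the calls became 5 for other keratins (from 2), 6 for pseudogenes (from 0) and 11 for anchors (from 6). Calls over all 15003 genes rose with it in every line too, from 678 to 1024 in isoform 1 and from 124 to 254 in isoform 9. With a filter of 5 TPM they became 0 for other keratins and 18 for colon differentiation genes (from 32, of which those of VIL1, LGALS4 and ANPEP depend on the filter). LGALS4 and ANPEP, with means of 3.111 and 3.403 TPM, are not tested under that filter, while VIL1, at 9.601 TPM, still is. With no minimum fold they were 23, 25, 92, 61 and 71 for other keratins, pseudogenes, anchors, other intermediate filaments and colon differentiation genes. With a library left out and the minimum fold kept, calls ran from 2 to 3 for other keratins and from 0 to 0 for pseudogenes. They ran from 5 to 8 for anchors and from 12 to 13 for other intermediate filaments.

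With the replicate number as a block, which leaves out isoforms 4 and 5, there were 8 calls against parental cells and 9 between lines. Under it KRT80 in isoform 9 (adjusted p 0.0443), KRT80 in isoform 3 against 1 (0.0225) and KRT18 in isoform 11 against 8 (-0.1369, 0.0367) passed, and KRT86 in isoform 7 no longer did (0.0593). Deviations from the group means had a median correlation of 0.054 between libraries of the same number (lowest -0.175) and -0.029 between different numbers; 31 of 33 libraries correlated best with their own number, but the numbers share no stated source.

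Estimates that changed sign had an adjusted p above 0.05 with and without the change. With scaling, KRT19 went to -0.0694 for isoform 5 against 4 and to -0.0758 for isoform 8 against 2, and with a pseudocount of 0.1 KRT23 in isoform 7 went to -0.0346. With a library left out the ranges against parental cells were -0.0143 to 0.0797 for KRT7 in isoform 1 and -0.0593 to 0.0256 for KRT81 in isoform 8. For KRT20 they were -0.2193 to 0.0247 (isoform 1), -0.1252 to 0.1189 (2), -0.2357 to 0.0084 (3), -0.0667 to 0.1774 (4), -0.2214 to 0.0402 (5), -0.2237 to 0.0204 (8), -0.2467 to 0.0393 (10) and -0.0672 to 0.1768 (12). For KRT23 they were -0.0376 to 0.029 (3), -0.0194 to 0.0472 (5), -0.0688 to 0.0562 (7), -0.0022 to 0.0784 (8) and -0.0516 to 0.0348 (9). Between lines they were -0.0094 to 0.0333 (KRT19, isoform 5 against 4), -0.1103 to 0.3633 and -0.2471 to 0.116 (KRT80 and KRT7, 6 against 3, where only KRT80 without replicate 1 of isoform 3 passed), -0.0342 to 0.0282 and -0.0409 to 0.0451 (KRT8 and KRT19, 8 against 2), and -0.0213 to 0.1389 and -0.0513 to 0.057 (KRT80 and KRT7, 11 against 8). For the insertion class they were -0.0201 to 0.0014 (KRT8) and -0.0217 to 0.0034 (KRT18). The cause of these changes was not tested. Low levels limit KRT20, KRT23, KRT81 and KRT86, for which TPM give no counting error.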

Other observations

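The authors' deposited table, made from counts, gives further values for the least abundant keratins, on a scale whose changes can be smaller than the ratios of mean TPM. In it KRT86 had log2 changes of -2.34 (isoform 2), -1.60 (isoform 10), -0.80 (isoform 12), -0.76 (isoform 4) and 0.46 (isoform 7, adjusted p 0.0455), and KRT81 had -1.35 (isoform 2) and 0.53 (isoform 7, adjusted p 0.0624). KRT20 had an adjusted p of at least 0.328 in every line in which one was given. KRT19 was at 1.01, 1.03 and 1.09 in isoforms 1, 2 and 7, KRT18 at 1.0974 in isoform 1, KRT7 at 1.04 in isoform 7 and KRT80 at -1.23 in isoform 3, so these meet the minimum fold there. KRT7 in isoform 4 was at -0.979 and does not. KRT80 in isoform 12 was at -1.26 there, against -1.80 from log2(TPM + 1). The deposited standard errors for KRT80 ran from 0.0493 in isoform 6 to 0.157 in isoform 2.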
